A study of Homo sapiens with 9 samples.

Results

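The regions described here are accessible regions near starts of protein-coding transcripts, and their DNA holds few CpG dinucleotides. They are called promoter regions for their distance to a start alone. For 34.3% of them that start was within 100 bp of the 5′ end of the gene record. FAIRE-seq (formaldehyde-assisted isolation of regulatory elements) enriches DNA that is not bound up in nucleosomes, and the deposited peak lists of the Jurkat line, which derives from a human T cell leukaemia, were merged into 40703 regions on the autosomes, X and Y. A region was a coding promoter region when its mid-point lay within 1 kb of the start of a protein-coding transcript, and CpG-poor when the observed number of CpG in its central 300 bp was under 0.4 of the number expected from its C and G content. Of the 40703 merged regions 9900 were coding promoter regions, and 1390 of these were CpG-poor. The remaining 8510 coding promoter regions had a ratio of 0.4 or more and are called the other promoter regions.

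Most promoters of vertebrate genes lie in CpG islands, stretches rich in unmethylated CpG that tend to be open in many cell types. CpG-poor promoters are more often those of tissue-specific and inducible genes, and a share of them carries a TATA box at a fixed distance before the start. In T cells the receptor chains, the surface molecules and many cytokines are known for promoters of this kind, on which factors of the RUNX, ETS, NFAT, AP1 and basic helix-loop-helix (bHLH) families act.

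The series holds 9 samples, of which 4 have a peak list used here, with 1 library each. By the labels, the NS list is from non-stimulated cells given DMSO as vehicle and the SW list from cells given DMSO, stimulated for 4 h with 24 ng/mL PMA and 1 µM calcium ionophore, and rested for 1 day without the stimulus. The labels assign the other lists to non-stimulated cells (NS rottlerin) and to stimulated and rested cells (SW rottlerin) that had received 15 µM rottlerin, a PKC inhibitor, for 1 h. The remaining 5 samples were not analysed here.

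The labels of 3 lists are in doubt, and the results below have to be read with this in mind. All peaks of the 4 lists together formed 40731 merged regions, 28 of them on other contigs. The methods of the study describe a merged set of this size that was built from the DMSO samples alone, and they give a shorter stimulus than the labels do. The size of the merged set bears directly on the rottlerin labels, and the SW label is treated as doubtful with them. Nothing found contradicts the label of the NS list, but the size of the merged set does not establish it. The lists labelled SW, NS rottlerin and SW rottlerin are called by these labels throughout, and no difference between them is read as an effect of stimulus, rest or rottlerin. Because 1 library stands behind each list, the spread between replicates is not known for any difference and no test was made. Intervals are 95% Wilson intervals for shares and order-statistic intervals for medians, and both cover counting error only.

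On the retained chromosomes the NS list held 18977 peaks, the SW list 20132, the NS rottlerin list 23835 and the SW rottlerin list 30409. Read depth is unknown from peak lists, so a region without a peak is one that was not called in that library. T cell markers had promoter regions more often than markers of other cell types, and than coding genes as a whole, of which 50.5% had one. Of 48 genes for T cell surface molecules and receptor chains 75% had a promoter region of either kind, against 25% of 16 B cell markers, 10% of 20 myeloid markers, 11.1% of 18 erythroid and megakaryocyte genes, 9.52% of 21 liver genes and 15% of 20 neuronal and muscle genes. These lists were written with earlier results of these data known, so the contrast is a description.

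The sequences of 5 CpG-poor promoter regions are shown as examples, and they were chosen because the results below return to them. They are read on the strand of the gene from the GRCh37 genome, each from the central 300 bp of the region with annotated UTR bases left out. Most therefore end 1 base before the transcript start. Bases of coding exons were not left out, so a stretch at an internal start can hold coding sequence. CD3D encodes a signalling chain of the T cell receptor complex. In its promoter region the capitals mark a RUNX match (TGTGGT) 200 bp and an NFAT match (TTTCCA) 157 bp before the start.
CD3D (chr11:118213421-118213625, minus strand): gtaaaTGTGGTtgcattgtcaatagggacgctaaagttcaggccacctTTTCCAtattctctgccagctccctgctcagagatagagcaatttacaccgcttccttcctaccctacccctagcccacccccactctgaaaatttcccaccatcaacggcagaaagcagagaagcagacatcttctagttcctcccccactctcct

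The inducible genes TNF and FASLG encode a proinflammatory cytokine and the ligand of the death receptor FAS. In TNF the capitals mark an NFAT match at 185 bp, an ETS match (GGAAGT) at 86 bp and the TATA box TATAAA at 29 bp before the start. In FASLG they mark an ETS match at 173 bp and an NFAT match (TGGAAA) at 39 bp before the start.
TNF (chr6:31543105-31543341, plus strand): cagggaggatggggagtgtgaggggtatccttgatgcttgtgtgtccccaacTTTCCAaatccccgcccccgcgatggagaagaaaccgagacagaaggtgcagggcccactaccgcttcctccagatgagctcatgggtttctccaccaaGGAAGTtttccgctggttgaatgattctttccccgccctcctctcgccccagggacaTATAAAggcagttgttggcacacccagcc
FASLG (chr1:172628002-172628242, plus strand): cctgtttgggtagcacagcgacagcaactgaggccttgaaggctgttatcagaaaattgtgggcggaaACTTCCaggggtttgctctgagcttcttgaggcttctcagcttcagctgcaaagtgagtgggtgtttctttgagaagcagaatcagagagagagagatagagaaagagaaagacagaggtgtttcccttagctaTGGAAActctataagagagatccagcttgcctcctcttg

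The last pair had peaks in every list but NS and are shown for their AP1 matches. PDLIM4 encodes a PDZ and LIM domain protein, and ITM2C an integral membrane protein. In PDLIM4 an AP1 match (TGATTCA) lies 760 bp before an internal transcript start, and bHLH matches (CAGGTG) lie 815 and 782 bp before it. In ITM2C an AP1 match (TGACTCA) lies 260 bp and an ETS match 305 bp before an internal start. The internal starts of PDLIM4 and ITM2C lie 3753 and 13579 bp from the 5′ ends of their gene records.
PDLIM4 (chr5:131596202-131596501, plus strand): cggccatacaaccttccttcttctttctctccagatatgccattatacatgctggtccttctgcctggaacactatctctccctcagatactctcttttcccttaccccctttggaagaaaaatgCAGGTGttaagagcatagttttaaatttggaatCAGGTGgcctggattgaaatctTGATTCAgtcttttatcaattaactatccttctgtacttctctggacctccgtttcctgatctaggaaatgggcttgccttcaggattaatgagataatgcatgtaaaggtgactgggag
ITM2C (chr2:231742571-231742811, plus strand): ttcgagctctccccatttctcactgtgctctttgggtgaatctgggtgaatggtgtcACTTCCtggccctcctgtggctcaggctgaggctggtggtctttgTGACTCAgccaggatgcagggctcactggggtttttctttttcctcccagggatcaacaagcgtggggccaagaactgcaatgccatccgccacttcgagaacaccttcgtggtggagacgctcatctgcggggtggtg

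CpG-poor promoter regions were called less uniformly across the lists than the other promoter regions. Of the 1390 regions, 764 had no NS peak, which is 55.0% (52.3 to 57.6%). This lay near the 53.5% of all merged regions and above the 25.7% of the other promoter regions. The gap to the other promoter regions was 29.3 percentage points (26.5 to 32.1). A peak in all 4 lists was found for 340 CpG-poor promoter regions, 24.5% (22.3 to 26.8%), beside 26.6% of all merged regions and 65.6% of the other promoter regions. A peak in 1 list only was found for 524, 37.7% (35.2 to 40.3%), beside 38.8% of all merged regions and 12.4% of the other promoter regions.

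By these shares the CpG-poor promoter regions stood between the other promoter regions and the 25772 CpG-poor regions away from coding starts. Of the latter 62.8% had no NS peak, 14.1% were found in all 4 lists and 47.8% in 1 list. The intervals of these 3 shares in the CpG-poor promoter regions excluded the values of both sets. A peak in the other 3 lists without an NS peak was found for 118 CpG-poor promoter regions, 8.49% (7.14 to 10.1%), beside 7.08% of all merged regions. The NS list alone held 112, 8.06% (6.74 to 9.61%), beside 7.83% of all merged regions and 1.10% of the other promoter regions.

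**Figure D1:**
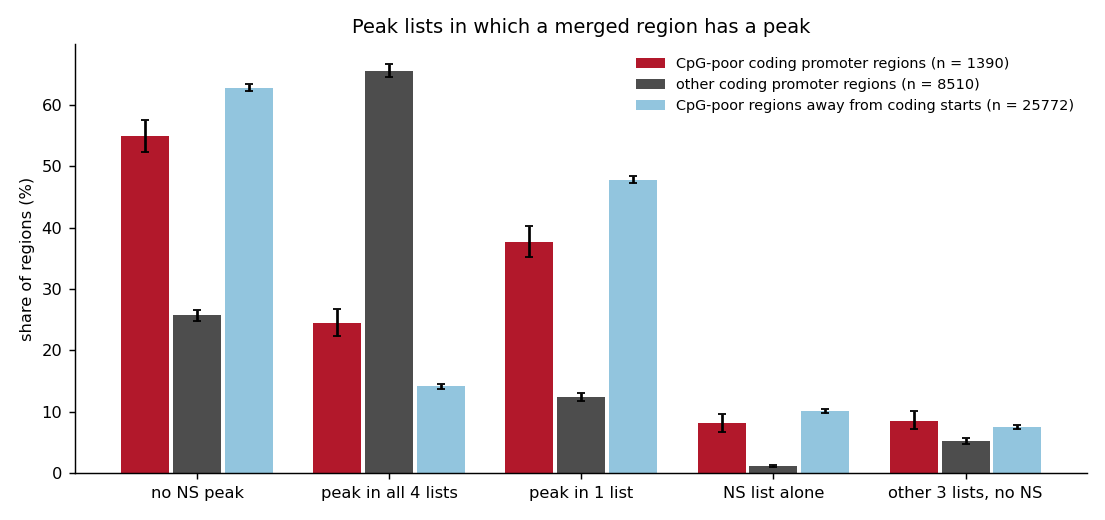
Share of regions in percent (vertical axis) by the lists in which they have a peak, for CpG-poor coding promoter regions, other coding promoter regions and CpG-poor regions away from coding starts. Bars are shares and error bars 95% Wilson intervals; the CpG-poor promoter regions lie between the other sets for regions without an NS peak, in all 4 lists, in 1 list and in the NS list alone.

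The change was gradual along the CpG ratio. Among coding promoter regions with a ratio under 0.1, 59.5% had no NS peak and 18.6% were found in all 4 lists. In the bin from 0.3 to 0.4 these shares were 47.6% and 31.5%, just above the limit, from 0.4 to 0.5, they were 42.9% and 44.6%, and from 0.8 to 1 they were 23.7% and 67.7%. The threshold of 0.4 thus fell within a slope. Just inside it lay the regions at SUN1, MSANTD3 and LMO1, which had peaks in 2, 1 and 1 lists, and just outside lay MGME1, ARIH1 and BTN2A2, with peaks in 2, 4 and 4 lists.

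**Figure D2:**
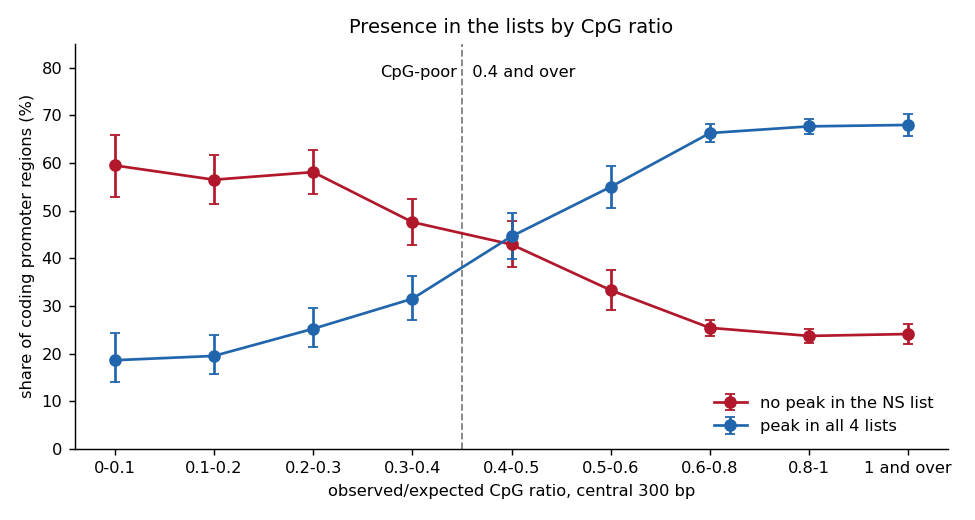
Share of coding promoter regions (vertical axis, percent) without an NS peak and with a peak in all 4 lists, by observed to expected CpG ratio of the central 300 bp (horizontal axis, bins of unequal width). Points are shares and bars 95% Wilson intervals; the dashed line is the limit of 0.4, and the share without an NS peak goes from 59.5% in the lowest bin to 24.1% in the highest.

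The CpG-poor promoter regions also had weaker peaks than the other promoter regions. The score of the authors' peak caller, which ranks peaks by q-value, moved with presence. The median highest score of the CpG-poor promoter regions was 54, beside 102 for the other promoter regions. It was also 54 for all merged regions, and 45 for CpG-poor regions away from coding starts. Within quartile classes of the score over all merged regions, the share without an NS peak was higher in CpG-poor promoter regions at high scores only. In the highest class (scores 92 to 480) 26.3% (21.8 to 31.3%) of 327 CpG-poor promoter regions had no NS peak, beside 3.70% (3.20 to 4.27%) of 4733 other promoter regions. In the next class (55 to 91) the shares were 51.2% and 35.3%, and in the class from 34 to 54 they were 66.9% and 66.2%. In the lowest class (10 to 33) 74.1% of the CpG-poor promoter regions and 83.5% of the other promoter regions had no NS peak, the reverse order. A peak in all 4 lists still differed in the class from 34 to 54, at 5.52% (3.60 to 8.38%) and 14.0% (12.1 to 16.2%). In the lowest class it was found in 1.79% and 1.44%. In CpG-poor regions away from coding starts the shares without an NS peak were 33.0%, 54.1%, 69.7% and 77.3%, from the highest class to the lowest.

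Most CpG-poor promoter regions without an NS peak lay more than 1 kb from one. Over these 764 regions the median distance to the nearest NS peak was 18246 bp. Of them 61 (7.98%) had one within 1 kb and 206 (27%) within 5 kb. The distance was not taken for other regions, so it cannot be called particular to these. The TNF region lay 27623 bp and the FASLG region 3630 bp from the nearest NS peak.

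Where a region had a peak in both lists, its fold enrichment over input, the 7th column of the lists, differed little. For regions with several peaks of a list the highest value was taken. Between the SW and NS lists the median log2 ratio was 0.03 (-0.01 to 0.06) over 412 CpG-poor promoter regions. Of these, 12 (2.91%) were over 1.5-fold higher in the SW list, beside 1.67% of all merged regions, and 8 (1.94%) were over 1.5-fold lower, beside 2.18%. In the NS rottlerin list the median was 0.08 (0.04 to 0.13) over 439 regions, with 19 (4.33%) higher and 7 (1.59%) lower, beside 3.19% and 1.38% of all merged regions. In the SW rottlerin list it was 0.11 (0.08 to 0.13) over 443 regions, with 23 (5.19%) higher and 3 (0.677%) lower, beside 4.5% and 1.54%. Dividing each list by its median over regions found in all 4 lists brought the last median to -0.01, with 13 regions above and 13 below 1.5-fold, so that its direction rests on the scale. Without this scaling, CpG-poor regions away from coding starts were over 1.5-fold higher in 3.11%, 5.47% and 7.28% for the SW, NS rottlerin and SW rottlerin lists. For the other promoter regions these shares were 0.416%, 0.905% and 1.97%. The larger shares were thus not particular to promoters.

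The regions differed from the other promoter regions in place as well as in sequence. The mid-point lay a median of 263 bp from the nearest coding start, beside 92 bp. The region covered the start in 49.6% (46.9 to 52.2%) of the CpG-poor promoter regions and in 89.6% of the other promoter regions. The nearest start was within 100 bp of the 5′ end of the gene record in 34.3% (31.9 to 36.9%), beside 65.0%, and the rest lay at internal transcript starts. In 61.2% the mid-point was in an intron, in 22.2% it lay outside any coding transcript and in 13.4% in a 5′UTR, whereas the other promoter regions had 25.1%, 48.0% and 22.7%. At 2 or more coding genes within 1 kb lay 42 CpG-poor promoter regions, 3.02%, beside 15.8% of the other promoter regions.

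Place and presence were related. Of the 340 CpG-poor promoter regions with a peak in all 4 lists 79.7% (75.1 to 83.6%) covered the start, and of the 524 with a peak in 1 list 29.0% (25.3 to 33.0%). Width moved with both, and its part was not tested. The median width was 634 bp for the regions in all 4 lists and 229 bp for those in the SW rottlerin list alone.

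Many of the genes had a promoter region of the other kind too. A start near a CpG-poor promoter region was found for 1322 coding genes, and 528 of these also had one of the other promoter regions. Counted by region, 573 (41.2%, 38.7 to 43.8%) had a nearest gene with one of the other promoter regions, and 14.7% of these lay at the gene end. The 817 without one lay at the gene end in 48.1%. Regions with and without such a neighbour lacked an NS peak in 56.2% and 54.1%. Several regions at 1 gene are not independent. AKAP13, which encodes an anchoring protein of protein kinase A, had 5 CpG-poor promoter regions, ATF7IP had 4 and FYN, ELF1, STIM1, RHOH and TESPA1 had 3 each.

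The central 300 bp does not always speak for the start itself. In 412 of the 1390 regions, 29.6% (27.3 to 32.1%), the 300 bp centred on the nearest start had a ratio of 0.4 or more. BCL10 is an example, with 0.385 in the centre of its region and 1.15 around the start. For CD3E, CD3G, FASLG and IL2 the ratio around the start was 0.10, 0.12, 0.11 and 0.10. Presence was close in both classes, since 56.2% (53.1 to 59.3%) of the 978 regions that were CpG-poor around the start and 51.9% (47.1 to 56.7%) of the 412 others had no NS peak. Counted over all 1390 regions, 144 had within 1 kb only transcripts whose 5′ end is marked incomplete in the annotation, TTC7B among them. A complete start lay within 1 kb of 89.6% (87.9 to 91.1%) of the CpG-poor promoter regions and of 99.4% of the other promoter regions.

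The exact TATA box letters TATAAA were rare, and variants of these letters were not sought. TATAAA on the strand of the gene, 45 to 15 bp before the nearest start, was found at 26 CpG-poor promoter regions, 1.87% (1.28 to 2.73%), and at 1.08% (0.882 to 1.32%) of the other promoter regions. At gene ends the shares were 2.73% (1.60 to 4.61%) and 1.21% (0.956 to 1.54%). TNF, shown above, was 1 of the 26.

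CpG-poor promoter regions were found at many of the genes of T cell identity, although these genes hold few of the 1390 regions, 35 of them at T cell surface genes. The gene lists were chosen with earlier results of these data known, so the shares below are descriptions. Of 48 genes for T cell surface molecules and receptor chains 31 (64.6%) had a CpG-poor promoter region and 7 one of the other promoter regions, 2 of them having both. Of 41 genes of T cell receptor signalling 25 (61.0%) had a CpG-poor one and 19 (46.3%) one of the others. Among genes of haematopoietic adhesion, cytoskeleton and lysosome it was 24 of 48 (50.0%). Over all 19794 coding genes 6.68% had a CpG-poor promoter region, 46.5% one of the other promoter regions and 49.5% neither. Genes of the immediate early response and its feedback were of the other kind, since 4 of 49 (8.16%) had a CpG-poor and 83.7% another promoter region. Transcription factors of T cells and of T cell leukaemia had a CpG-poor promoter region in 13 of 49 genes (26.5%), 10 of them beside one of the other kind, and only 3 of their 15 regions lay at a gene end. Inducible cytokines and chemokines had one in 8 of 41 genes (19.5%), and 26 of the 41 had no promoter region at all. Among markers of other cell types, 4 of 16 B cell markers (25.0%) and 2 of 20 myeloid markers (10.0%) had a CpG-poor promoter region. For erythroid and megakaryocyte, liver, and neuronal and muscle genes the shares were 5.56%, 4.76% and 5.00%.

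**Figure D3:**
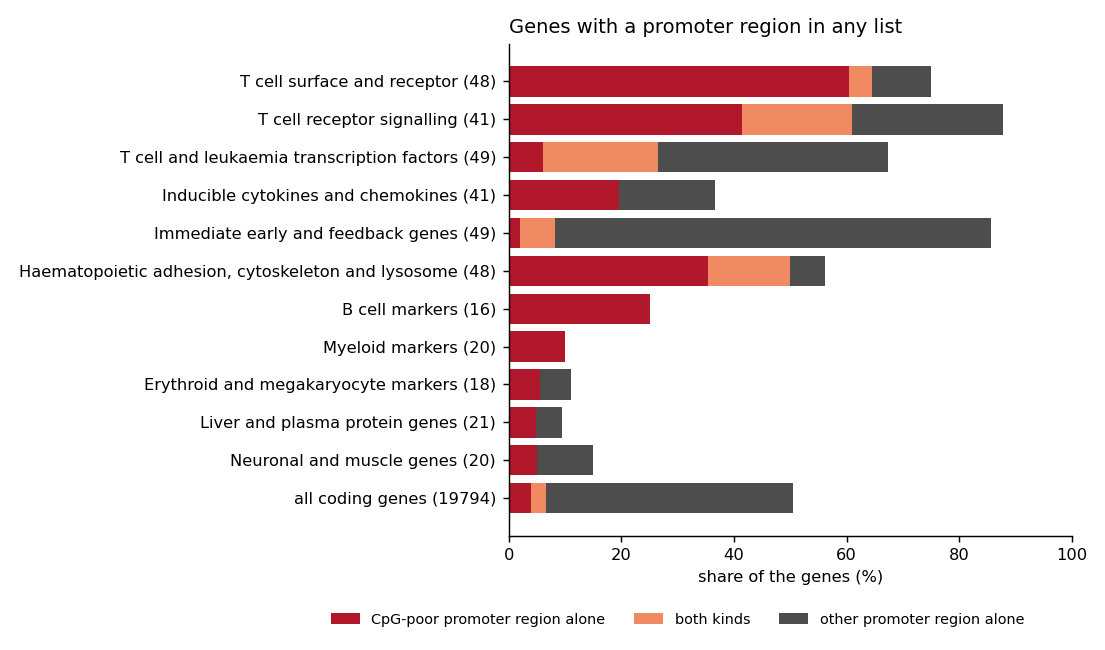
Share of the genes of each list (horizontal axis, percent) with a CpG-poor promoter region alone, with both kinds and with another promoter region alone, in any of the 4 peak lists. The number of genes is in brackets; a CpG-poor promoter region was found for 64.6% of the T cell surface genes and 6.68% of all coding genes.

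Presence at these genes can be read against the 1390 regions, of which 24.5% were in all 4 lists, 37.7% in 1 list and 55.0% without an NS peak. Of the 35 regions of T cell surface genes 11 (31.4%, 18.6 to 48.0%) were in all 4 lists, 9 (25.7%, 14.2 to 42.1%) in 1 list and 15 (42.9%, 28.0 to 59.1%) without an NS peak, and each interval held the share of the 1390 regions. Of the 33 regions of T cell receptor signalling genes 18 (54.5%, 38.0 to 70.2%) were in all 4 lists, 10 (30.3%, 17.4 to 47.3%) in 1 list and 11 (33.3%, 19.8 to 50.4%) without an NS peak, so that the first lay above and the last below the share of the 1390 regions. These 33 regions had a median highest score of 91, beside 54 for the 1390 regions, and the part of the score was not tested. Among them FYN, RHOH and TESPA1 had 3 regions each, so the 33 are not independent. The 9 regions of cytokine genes had none in all 4 lists, 6 in 1 list and 7 without an NS peak, and the intervals of all 3 shares held those of the 1390 regions. A peak was called for 2 of these 9 in the NS, the SW and the NS rottlerin list each, and for 7 in the SW rottlerin list. These are small counts, and the SW rottlerin list is the longest of the 4, with a peak at 1032 CpG-poor promoter regions, beside 626, 693 and 803 in the NS, SW and NS rottlerin lists.

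The receptor complex, whose signalling chains CD3D, CD3E and CD3G encode in part, showed several patterns. In CD3D the fold enrichment was 3.84 in the NS list, 4.14 in the SW list, 4.33 in the NS rottlerin list and 4.87 in the SW rottlerin list. CD3E had 4.31, 3.55, 3.75 and 3.81 in the same order. Both were thus called in every list, within a narrow range. CD3G, whose start lies 1639 bp from that of CD3D, was called in the NS list and no other, with 4.87. CD247, the zeta chain, had no NS peak and 3.76 and 4.02 in the SW and NS rottlerin lists. Adjacent genes of 1 complex, CD3D and CD3G, therefore differed in the lists that called their promoters.

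Some signalling proteins next to the receptor, though not all, had promoter peaks in every list. LCK, the Src family kinase that phosphorylates the CD3 chains, had 6.12, 5.80, 5.94 and 5.42 in the NS, SW, NS rottlerin and SW rottlerin lists, at an internal start 22869 bp from the end of its gene record. GRAP2, an adaptor that links LAT to SLP-76, had 7.18, 5.51, 8.35 and 5.82. For PTPN22, a phosphatase that restrains receptor signalling, the values were 5.11, 6.64, 6.30 and 5.27. The highest value was thus in a different list for each of the 3 genes. ZAP70, the kinase recruited to the phosphorylated chains, lacked an NS peak and had 3.64, 4.06 and 3.81 in the SW, NS rottlerin and SW rottlerin lists.

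Genes of the T cell surface list fell into both kinds of pattern. PTPRC, which encodes the phosphatase CD45, had 3.82, 4.97, 7.14 and 4.73 in the NS, SW, NS rottlerin and SW rottlerin lists at the stronger of its 2 regions, and the other region was called in the NS list alone, with 3.42. The early activation antigen CD69 had 3.35, 4.76, 5.32 and 4.91, and the costimulator ICOS 4.17, 5.45, 4.15 and 4.49. For CD69 and the stronger PTPRC region the NS value was the lowest of the 4, and for ICOS it lay next to the lowest. THEMIS, a cytosolic protein needed for thymocyte selection, had 2 regions that differed. The region at an internal start was the other way round, with an NS value of 3.94 and 3.02, 2.93 and 2.68 elsewhere, and the region at the gene end had 3.30, 3.54, 3.29 and 4.52 from the NS list on. Without an NS peak were the costimulator CD27 (2.97, 3.66 and 3.55 in the SW, NS rottlerin and SW rottlerin lists) and the activating receptor CD226 (3.46, 5.33 and 4.57). The chemokine receptor CCR7 had 2 regions. The one at the gene end had no NS peak and 3.41, 3.22 and 3.55, and the one at an internal start had 3.10, 4.90, 4.10 and 4.55 from the NS list on.

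Receptors of interleukin 2 were unlike each other. IL2RA, the inducible alpha chain, had no NS peak and 3.54 in the SW and 3.35 in the SW rottlerin list. CTLA4, an inhibitory receptor, was called in the same 2 lists, with 2.97 and 3.81, at an internal start. For IL2RB the NS list alone had a peak, with 3.40, and IL2RG, the chain shared by several cytokine receptors, had 4.28, 4.20, 3.60 and 4.55 in the NS, SW, NS rottlerin and SW rottlerin lists.

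The cytokine genes were called in few lists. TNF had a peak in the SW rottlerin list alone, with 5.66 and a score of 132. FASLG had 3.75 in the SW list and 6.19 in the SW rottlerin list. CCL20, a chemokine, was called in the same lists, with 3.47 and 4.47. For IL2 the SW rottlerin list alone held a peak, with 3.61, a score of 20 and the mid-point 130 bp inside the gene. IL6 had 3.01 in the NS rottlerin list alone. TNFSF4, which encodes the OX40 ligand, was the exception with NS peaks of 4.29 and 3.80 at its 2 regions. The feedback gene BCL2A1, an inhibitor of apoptosis, had no NS peak and 3.89, 3.85 and 4.51 in the other lists.

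**Figure D4:**
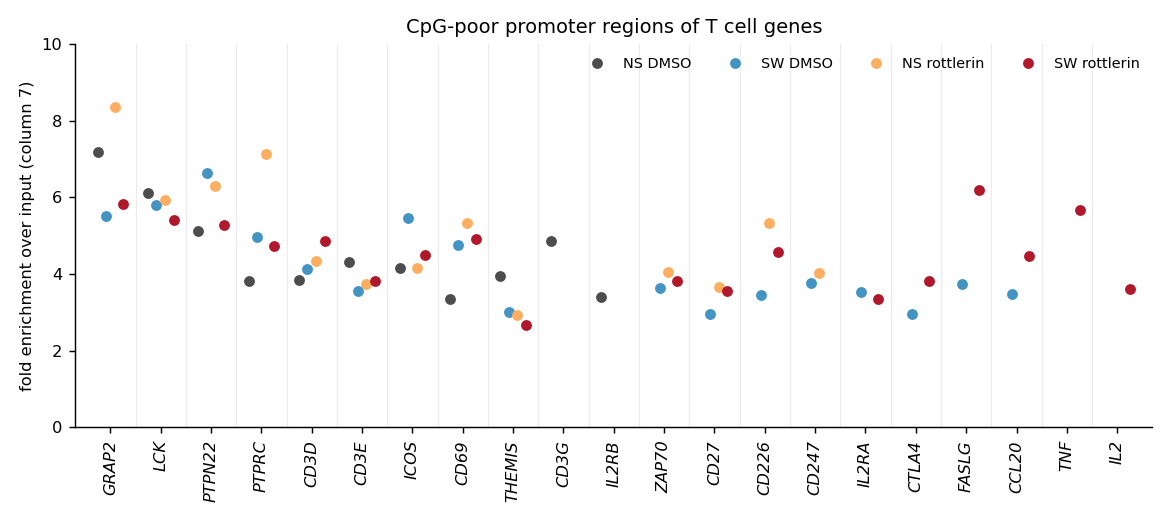
Fold enrichment over input (vertical axis, the 7th column of the lists) at the highest-scoring CpG-poor promoter region of 21 T cell genes, 1 point for each list with a peak, coloured by the label of the list. LCK and GRAP2 have points in all 4 lists, CD3G and IL2RB in the NS list alone, and TNF and IL2 in the SW rottlerin list alone.

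By fold enrichment, the strongest CpG-poor promoter regions of the NS list that had peaks in all 4 lists were at MTA2, BANK1, GOLPH3L, ZNF281, MRTFA, GRAP2, PANX3 and STK17B. MTA2, a subunit of the NuRD chromatin remodelling complex, had an NS value of 8.10, and 6.91, 8.19 and 8.09 in the SW, NS rottlerin and SW rottlerin lists, at an internal start. GOLPH3L, which encodes a Golgi protein, had 7.37, 6.72, 7.08 and 8.64 and lay close to the limit of the rule, with a CpG ratio of 0.390. Of the 8 regions 5 lay at a gene end and none held an AP1 match, which 50 of the 340 CpG-poor promoter regions in all 4 lists did.

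Among regions without an NS peak and with peaks in the other 3 lists, ranked by the lowest of the 3 values, the strongest were at AEBP2, DMAC2L, IFI16, PDLIM4, TRAF2, S100A2, ITM2C and TTC7B. PDLIM4 had 7.08, 4.94 and 7.79 in the SW, NS rottlerin and SW rottlerin lists, and its nearest NS peak was 33083 bp away. For TRAF2, an adaptor of TNF receptors, the values were 5.66, 4.89 and 8.40, and for IFI16, a sensor of DNA, 5.08, 5.66 and 5.93. Of these 8 regions 7 held an AP1 match, all but AEBP2, and 1 lay at a gene end. For the group of 118 regions with this pattern the share with an AP1 match was 33.9%, as given below.

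Among regions with peaks in all 4 lists the highest mean log2 ratio to the NS list was at SLC25A45, EMP1, STIM1, C3AR1 and CXCR6. STIM1, the calcium sensor of the endoplasmic reticulum, had an NS value of 3.28, and 5.37, 5.22 and 6.27 in the SW, NS rottlerin and SW rottlerin lists at an internal start. C3AR1, the receptor of complement C3a, had 3.76 and 5.86, 7.11 and 5.65. The lowest ratios were at STK17B, TSC22D4, PANX3, SLC2A1 and THEMIS. STK17B, a kinase that sets the threshold of T cell activation, had an NS value of 6.98 and otherwise 4.37, 5.12 and 4.55, and SLC2A1, the glucose transporter GLUT1, 5.01 and 3.35, 3.12 and 3.98. An AP1 match was held by 50 of the 340 CpG-poor promoter regions in all 4 lists. Of the 5 regions with the highest ratios 4 held one, and of the 5 with the lowest none did. These regions were named for their values, so the ratios are descriptions.

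Motifs that the rule did not use set the CpG-poor promoter regions apart from the other promoter regions. In all, 17 motifs were sought as fixed letters on both strands of the central 300 bp, and those that bear on the comparisons are given. AP1 (TGANTCA) was found in 18.7% (16.7 to 20.8%) of the CpG-poor promoter regions, 3.75% of the other promoter regions, 23.1% of the CpG-poor regions away from coding starts and 17.9% of all merged regions. For RUNX (TGTGGT) the shares in this order were 33.9% (31.4 to 36.4%), 9.46%, 41.2% and 32.8%, for NFAT (TGGAAA) 31.7% (29.3 to 34.1%), 14.6%, 32.5% and 27.9%, and for the GATA family letters AGATAA 19.9% (17.9 to 22.1%), 4.42%, 27.3% and 21.0%. ETS (GGAAGT) differed less, at 31.7% (29.3 to 34.1%), 26.3%, 28.5% and 27.6%. The SP1 letters GGGCGG hold a CpG and so depend on the rule. They were found in 14.2% and 71.8% of the CpG-poor and the other promoter regions and in 5.37% of the CpG-poor regions away from starts. GC content differs between these sets, with medians of 47.0% and 66.0% in the CpG-poor and the other promoter regions, and its part in the motif shares was not tested.

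Within the CpG-poor promoter regions the AP1 match went with absence from the NS list. Of the 260 regions with a match 70.8% (65.0 to 76.0%) had no NS peak, beside 51.3% (48.4 to 54.2%) of the 1130 without. The order was the same at every level of the score, though the intervals overlapped in the lowest class. In the highest class the shares were 44.3% (33.2 to 55.9%) and 21.4% (16.8 to 26.8%), in the next 80.3% and 45.4%, then 82.7% and 62.7%, and in the lowest 77.8% and 73.4%. The other promoter regions with an AP1 match lacked an NS peak in 39.8% (34.6 to 45.3%) and those without in 25.1% (24.2 to 26.1%). In CpG-poor regions away from starts the shares were 80.4% and 57.5%, so the relation was not particular to promoters. Nor was it particular to AP1. CpG-poor promoter regions with an NFAT match lacked an NS peak in 63.6% (59.0 to 68.0%), and those without in 50.9% (47.8 to 54.1%). For GATA the shares were 61.4% and 53.4%, with overlapping intervals. For CACCTG the order was reversed, with 47.7% (42.5 to 52.9%) and 57.4% (54.4 to 60.4%).

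For AP1 the fold enrichment pointed the same way as presence where both lists had a peak. With an AP1 match the median log2 ratio to the NS list was 0.18 (0.07 to 0.25) in the SW list over 56 regions, and without it 0.01 (-0.02 to 0.05) over 356. In the NS rottlerin list the medians were 0.18 (0.11 to 0.29) and 0.07 (0.03 to 0.10), and in the SW rottlerin list 0.24 (0.11 to 0.34) and 0.10 (0.07 to 0.12). The 3 comparisons share the NS list.

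The motif shares differed between the CpG-poor promoter regions that single lists alone held. In the SW rottlerin list NFAT was found in 132 of 253 regions, 52.2% (46.0 to 58.3%), TNF and IL2 among them. For the NS rottlerin list NFAT was found in 17 of 109, 15.6% (9.97 to 23.6%). ETS was found there in 42.2% (33.4 to 51.6%), beside 31.7% of all CpG-poor promoter regions. This ETS share is not set against all merged regions of that list alone. The bHLH letters CACCTG were found in 49 of the 112 regions of the NS list alone, 43.8% (34.9 to 53.0%), CD3G among them, and in 25.2% (23.0 to 27.5%) of all CpG-poor promoter regions. The SW list alone held 50 regions, with CACCTG in 38.0% (25.9 to 51.8%) and AP1 in 30.0% (19.1 to 43.8%). Regions in every list but NS held AP1 in 33.9% (26.0 to 42.8%), and those in all 4 lists in 14.7% (11.3 to 18.9%). RUNX differed less between these groups, from 24.0% to 38.4%, with overlapping intervals. Over all merged regions NFAT was found in 43.8% of those in the SW rottlerin list alone and 19.4% of those in the NS rottlerin list alone, and CACCTG in 39.8% of those in the NS list alone. AP1 was found in 36.7% of all merged regions in every list but NS and in 9.68% of those in all 4 lists. The order of the NFAT shares of the rottlerin lists, and of these AP1 shares, was thus the same over all merged regions. In the SW list alone all merged regions had AP1 in 35.0% and CACCTG in 23.9%, the latter below the interval of the CpG-poor promoter regions. Since the lists differ in length and the labels of 3 are in doubt, stimulus, treatment and library cannot be told apart here.

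**Figure D5:**
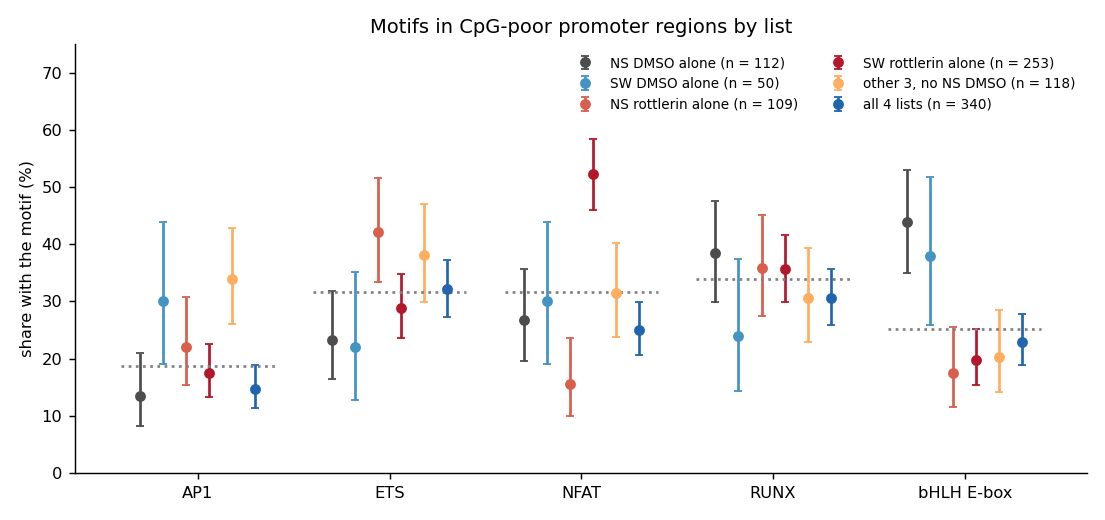
Share of CpG-poor promoter regions with a motif in the central 300 bp (vertical axis, percent), for regions found in 1 list alone, in the other 3 lists without NS, and in all 4 lists. Points are shares, bars 95% Wilson intervals and dotted lines the share over all 1390 regions; NFAT stands at 52.2% in the SW rottlerin list alone and the bHLH E-box at 43.8% in the NS list alone.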

How the data were processed

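FAIRE-seq peak lists of 4 Jurkat libraries on hg19 were used. According to the methods of the study and the processing notes, the authors trimmed reads with CutAdapt, aligned with Bowtie2, discarded duplicates by Picard and then called broad peaks per sample against genomic input with MACS2, whose versions are not given in the sources used here. Each deposited list gives, per peak, a score, a ratio to input (fold enrichment) and the −log10 of the p-value and q-value. No replicates were pooled within a list, and read depth is unknown. The highest q-value in a list was between 0.0946 and 0.0983.

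Peaks that overlapped or touched were joined across lists, and each region took its highest score and, per list, its highest fold enrichment. Starts of protein-coding transcripts (89204, of which 80920 are not marked incomplete) and gene parts came from GENCODE release 44 on GRCh37. The CpG ratio was the CpG number times length over the product of C and G numbers. The RefSeq promoter table was not used because its build differs.

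The members, gene lists, motifs and comparisons were chosen with earlier results of these data known. Named regions were the 8 strongest in all 4 lists (by the NS value) and in all lists but NS (by the lowest value), the 5 strongest of the NS list alone and 3 of each other list alone, the 5 highest and lowest mean log2 ratios, up to 40 regions of T cell, cytokine and immediate early genes, and 3 on each side of the limit, and the text gives a selection of them. Some named regions and sequences are not reported here. With 1 library per state no test between lists was made. Steps were tested on simulated data, and all planted regions, ratios, distances and motifs were recovered. Alternatives covered the CpG limit, window and formula, the set and distance of starts, the peaks used, merging, chromosomes, the use of the fold enrichment, the motif window and each list left out. Those on the ratio around the start and on complete starts were added after seeing the data. Tools were samtools 1.23.1 and, under Python 3.11.15, pysam 0.24.0, pandas 2.3.3, matplotlib 3.10.9, numpy 2.4.6 and scipy 1.17.1.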

Additional observations from a re-analysis of the deposited data

How the results depend on the processing

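Under 21 alternatives 256 of 330 recomputed values stayed within the interval of the reported share or median, or within 1.5 times the reported count, and 74 did not. No paired analysis was possible because a single library stood for each state and no test was run. The share without an NS peak was higher in CpG-poor than in other promoter regions under every alternative that kept the NS list, with a gap of 24.8 to 35.9 percentage points, the lowest with equal numbers of peaks per list, the highest with the better-scoring 50% of peaks, and 25.9 without the SW rottlerin list. All values of the CpG ratio over 500 bp, the other CpG formula, the q-value limit of 0.05, touching peaks kept apart, autosomes only and the length-weighted fold enrichment stayed within these bounds.

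With a CpG limit of 0.3 the share without an NS peak was 57.9%, in all 4 lists 21.7% and at gene ends 31.8%, and 7 regions were over 1.5-fold higher in the SW list. With a limit of 0.5 the shares without an NS peak, in all 4 lists and in 1 list were 52.3%, 29.0% and 35.0%, and 35 regions were higher in the SW rottlerin list. With mid-points within 500 bp these shares were 51.4%, 29.5% and 31.8%, and 4 regions were lower in the SW list. Gene ends only (by construction 100% at gene ends) left 579 regions, 27.6% of them in all 4 lists, 33.9% in 1 list and 16.4% with AP1. Regions over 1.5-fold higher and lower were then 5 and 5 in the SW list and 8 and 2 in the NS rottlerin list, and 7 were higher in the SW rottlerin list.

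With equal numbers of peaks per list 44.4% had no NS peak, 28.9% had an NFAT match, the median log2 ratios of the NS rottlerin and SW rottlerin lists were 0.14 and 0.16, and 5, 3 and 1 regions were lower in the SW, NS rottlerin and SW rottlerin lists. The higher-scoring 50% of each list left 669 regions and 20 T cell surface genes, with 63.7% without an NS peak, 20% in all 4 lists, 28.7% with NFAT and 39.3% at gene ends. The median of the SW list then changed sign to -0.01 and that of the SW rottlerin list was 0.06, with 0, 1 and 1 regions higher and 2, 0 and 1 lower in the SW, NS rottlerin and SW rottlerin lists. Scaling by list medians gave 0.02 for the NS rottlerin list and turned the SW rottlerin median to -0.01, with 13 regions higher and 13 lower. At the higher fold limit 3, 5 and 4 regions were higher and 2, 0 and 1 lower. A motif window of 500 bp gave AP1 in 25.6%, NFAT in 44.3% and CACCTG in 37.8%.

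Without the NS list 35.4% had a peak in all remaining lists. Without the SW, NS rottlerin and SW rottlerin lists this share was 29.0%, 28.4% and 30.5%, and the share in 1 list 45.3%, 45.7% and 45.5%. The share without an NS peak was 51.7% without the NS rottlerin list and 45.1% without the SW rottlerin list, where NFAT was found in 26.1%. With the CpG ratio around the start, an alternative chosen after seeing the data, 31.2% lay at gene ends, and 7 regions were higher and 4 lower in the SW list. With complete starts only, also chosen after seeing the data, 38.4% lay at gene ends and 4 regions were lower in the NS rottlerin list. The cause of these shifts was not tested. What limits all values is the unknown depth of 4 single libraries and the doubt about the labels of 3 of them.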

Other observations

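Of the 15 CpG-poor promoter regions of T cell and leukaemia transcription factors 4 were called in every list, which is 26.7% (10.9 to 52.0%) beside 24.5% of all CpG-poor promoter regions. ELF1, an ETS family factor, had 3 of these, all at internal starts. The strongest had an NS fold enrichment of 4.33, and 5.48, 5.80 and 6.05 in the SW, NS rottlerin and SW rottlerin lists, and at all 3 the NS value was the lowest. RUNX1 was the other way round at an internal start, with an NS value of 5.14 and 4.04, 4.02 and 3.56 elsewhere. RAG2, a subunit of the recombinase of antigen receptor genes, was called in the NS and SW rottlerin lists, with 4.12 and 3.85, at its gene end.

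The regions that a single list held with the highest fold enrichment were at DIPK1A (5.35), CD3G (4.87), OR4D2 (4.87), RERE (4.81) and LRRC9 (4.76) in the NS list. In the NS rottlerin list they were at PRR4 (5.90), RNASE6 (5.50) and HOMER2 (4.96), and in the SW rottlerin list at ST6GAL1 (6.26), EDARADD (5.72) and TNF (5.66). The CACCTG letters were found in 4 of the 5 regions of the NS list, in 3 of 3 of the NS rottlerin list and in 0 of 3 of the SW rottlerin list. Over all CpG-poor promoter regions of these lists alone the shares were 43.8%, 17.4% (11.5 to 25.6%) and 19.8%, so the 3 regions of the NS rottlerin list do not stand for their group. The NFAT letters were found in 2 of the 3 regions of the SW rottlerin list, at ST6GAL1 and TNF, and in none of the 5 of the NS list.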
